A study of Mus musculus with 8 samples.

Results

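The genes described here encode the enzymes that make and break down prostaglandins and leukotrienes, the lipid mediators derived from arachidonic acid. The 10 members were Ptgs1, Ptgs2, Ptges, Hpgds and Hpgd of the prostaglandin branch, Alox5, Alox5ap, Ltc4s and Lta4h of the leukotriene branch, and the lipoxygenase gene Alox15. Their data are C/EBPα peaks from CUT&RUN, in which a nuclease tethered to an antibody cuts out the DNA around a bound protein. Peaks of 6 libraries were merged into regions wherever they overlapped by 1 bp, and every region within 60 kb of a member's annotated span (mm10) was taken, which gave 284 of 259446 regions. The list was chosen by WT peak strength in part, since Ptges and Ptgs2 lie near some of the strongest WT regions, and the WT levels at these genes are given as a description without a test.

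The cells were sorted from mouse bone marrow as lineage-negative, KIT high to intermediate and FLT3-positive progenitors. Their genotypes were WT and 2 variants of an enhancer 165 kb from Zeb2, a gene for a zinc-finger repressor. The labels call the variants DC and DE and give neither their sequence change nor the age or number of the mice. Each of the 3 genotypes had 2 anti-C/EBPα libraries, and replicate 1 was batch 1 and replicate 2 was batch 2 throughout. The labels do not tie replicates to separate animals, and p-values therefore measure only a spread between libraries, which may be technical. The 2 IgG control libraries, both WT, were not analysed here.

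In the prostaglandin branch, cyclooxygenases (Ptgs1 and the inducible Ptgs2) convert arachidonic acid to prostaglandin H, which terminal synthases such as Ptges and Hpgds turn into prostaglandins E and D, and Hpgd oxidises prostaglandins to inactive forms. In the leukotriene branch, 5-lipoxygenase (Alox5) works with its membrane partner FLAP (Alox5ap) to make leukotriene A, which Lta4h converts to leukotriene B and Ltc4s to the cysteinyl leukotriene C. Myeloid cells are the main producers of leukotrienes, and C/EBPα is a basic leucine zipper factor of the myeloid lineages that binds palindromes related to TTGCGCAA. The data here are binding alone and hold no RNA or enzyme measurement, and a region within 60 kb of a gene is not shown to act on it.

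Promoter sequences come from RefSeq (build GRCm38.p6), where 8 of the 10 members had an entry; Alox5ap and Alox15 had none. The sequences printed are those under the strongest Ptgs2 regions, the 250 bases before the start of Ptgs2 and of its antisense-named neighbour Ptgs2os2 (lincRNA-Cox2), and a 30-base stretch upstream of Hpgds. Each is read 5′ to 3′ on its gene's strand, and capitals mark matches to the C/EBP consensus TTNNGNAA on either strand. Ptgs2 lies at chr1:150099781-150100030 on the plus strand, Ptgs2os2 at chr1:150164949-150165198 on the minus strand and the Hpgds stretch at chr6:65144888-65144917 on the minus strand.
Ptgs2: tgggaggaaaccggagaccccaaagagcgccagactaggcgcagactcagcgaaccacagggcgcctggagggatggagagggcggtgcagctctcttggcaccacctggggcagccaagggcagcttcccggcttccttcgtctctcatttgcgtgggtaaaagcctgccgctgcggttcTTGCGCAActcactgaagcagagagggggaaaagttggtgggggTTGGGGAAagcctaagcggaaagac
Ptgs2os2: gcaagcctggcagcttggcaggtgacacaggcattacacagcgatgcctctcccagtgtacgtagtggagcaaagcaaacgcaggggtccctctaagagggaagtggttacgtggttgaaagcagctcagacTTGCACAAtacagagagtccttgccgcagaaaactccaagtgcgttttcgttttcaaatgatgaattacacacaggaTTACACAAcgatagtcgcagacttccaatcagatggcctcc
Hpgds: gactttactctTTATGCAAatacgttggac

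The Ptgs2 promoter held the full palindrome TTGCGCAA at positions -69 to -62, counted back from -1 at the base before the start, and a weaker match, TTGGGGAA, at -25 to -18. Of 32851 RefSeq promoter windows of 250 bases, 54 (0.164%) held TTGCGCAA, and of the 5780 windows that overlapped a region called in all 6 libraries, 39 (0.675%) did. The looser TTNNGNAA is common, at 36.8% of all windows and 31.5% of those overlapping such a region. Ptgs2os2 held TTGCACAA at -118 to -111 and TTACACAA at -41 to -34. Hpgds held TTATGCAA at -176 to -169 and TTGTGAAA at -144 to -137, the second outside the stretch printed. A match is a description of letters, not evidence of a site.

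Distances from the peak summits to these letters differed between promoters. At the Ptgs2 promoter the 6 summits were 1.5 to 34.5 bp from the centre of TTGCGCAA, on both sides of it, and 9.5 to 61.5 bp from TTGGGGAA, the nearer of both for WT replicate 2. At Ptgs2os2 all 6 lay 6.5 to 9.5 bp from the centre of TTGCACAA and on the same side. The 6 Hpgds summits were 15.5 to 47.5 bp from TTATGCAA, and 1.5 to 22.5 bp from CACCTG, the E-box letters of E proteins and ZEB2, at -200 to -195. The E-box letters were also in the Ptgs2 promoter at -147 to -142, 61.5 to 113.5 bp from the summits, and in the Ptgs2os2 promoter at -232 to -227 on the opposite strand, 105.5 to 108.5 bp from them. CACCTG was in 17.2% of all windows and in 13.1% of those overlapping a region called in all 6 libraries. The PU.1 letters GAGGAAG, in 10.6% and 12% of windows, were the only match of these motifs in the Ptgs1 promoter, at -24 to -18, and also lay in the Hpgds promoter at -49 to -43, 142 to 174 bp from the summits. In the Lta4h promoter, which also lay under a region called in all 6 libraries, none of these letters occurred.

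**Figure D1:**
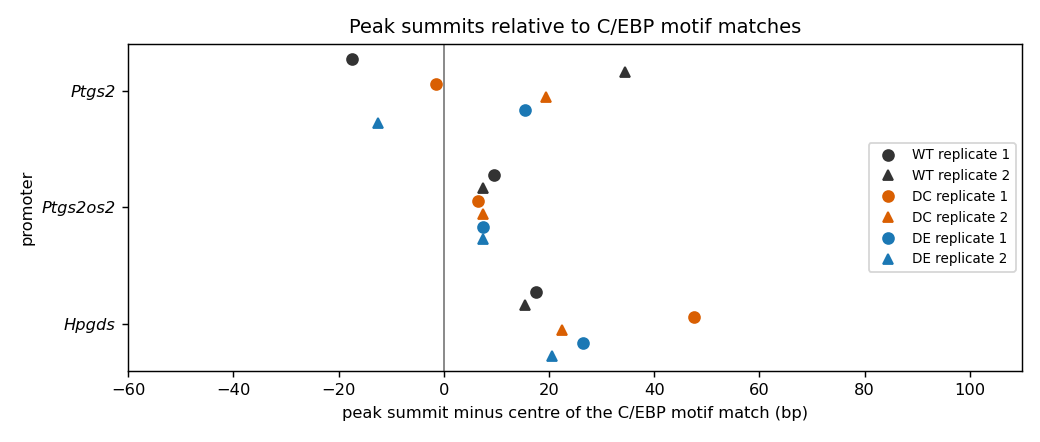
Distance in bp from the centre of 1 C/EBP motif match to the peak summit, at the promoters of Ptgs2 (TTGCGCAA), Ptgs2os2 (TTGCACAA) and Hpgds (TTATGCAA), with 1 point per library (circle, batch 1; triangle, batch 2) and positive values towards higher mm10 positions. The match drawn is the one with the smallest median distance over the 6 libraries. The Ptgs2os2 summits sit together at 6.5 to 9.5 bp, and the Ptgs2 summits spread to both sides of TTGCGCAA, up to 34.5 bp away.

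Binding near the members was present in every library. The libraries had 110 and 105 regions near the members for WT, 192 and 88 for DC, and 92 and 108 for DE. In both WT libraries 68 of the 284 regions were called (23.9%, against 12.1% of all regions), and 51 were called in all 6 (18%, against 9.05%). A further 170 were called in 1 library (59.9%, against 76.7%), 90 of them in DC replicate 1. Since the members were chosen partly for strong WT regions, the difference from the background shares supports nothing. Ltc4s and Alox15 had the most regions called in both WT libraries, with 13 and 12, and Hpgds and Hpgd the fewest, with 2 and 1. Of the 68, 23 touched a member's annotated span, 4 lay over a curated start (Ptgs1, Ptgs2, Lta4h and Hpgds), and 24 were nearer to another protein-coding gene.

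Levels are given as the pileup, the number of fragments that cover a peak's summit, which was worked out from the authors' deposited fold and p-value. For comparison between libraries, the pileups of each were scaled by its median log2 difference from the region means, over the regions called in all 6 libraries. Differences were tested on the log2 scale with limma. The fit took the 23480 regions that every library called, 51 of them near members. Without the batch in the model, no member region passed an adjusted p of 0.05 in DC against WT, DE against WT or DC against DE, and neither did any other region (0% called). At an unadjusted p under 0.05 the member counts were 2, 5 and 4 (3.92%, 9.8% and 7.84%), beside 7.97%, 4.88% and 2.36% of all regions. With the batch as a term, a pairing the labels give, 2 member regions were higher in DC than in WT (3.92%, background 3.15%) and 0 were lower (background 1.15%). In DE against WT 0 were higher (background 1.12%) and 1 was lower (1.96%, background 0.268%). In DC against DE 0 were higher (background 0.00852%) and 0 lower (background 0.0213%). At an unadjusted p under 0.05 this fit had 6 member regions in DC against WT (11.8%, all regions 17%), 11 in DE against WT (21.6%, all regions 12%) and 7 in DC against DE (13.7%, all regions 8.16%). The DC and DE comparisons share the WT libraries. The 3 regions that passed were near Alox15, Lta4h and Ptgs1. For single regions below, SEs, intervals and adjusted p-values are from the fit with the batch as a term unless another fit is named. Without the batch, the estimates were the same, and the named member regions had larger SEs and wider intervals.

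The median member difference was near 0 in both comparisons with WT. It was -0.00126 for DC (all regions -0.0201) and -0.0337 for DE (all regions -0.00399) on the log2 scale, with 25 of 51 regions above 0 in each. These signs depend on the scaling: scaled by each library's background floor, the median of all regions moved to 0.84 in DC and 0.55 in DE, and 51 and 45 of the 51 member regions were above 0.

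**Figure D2:**
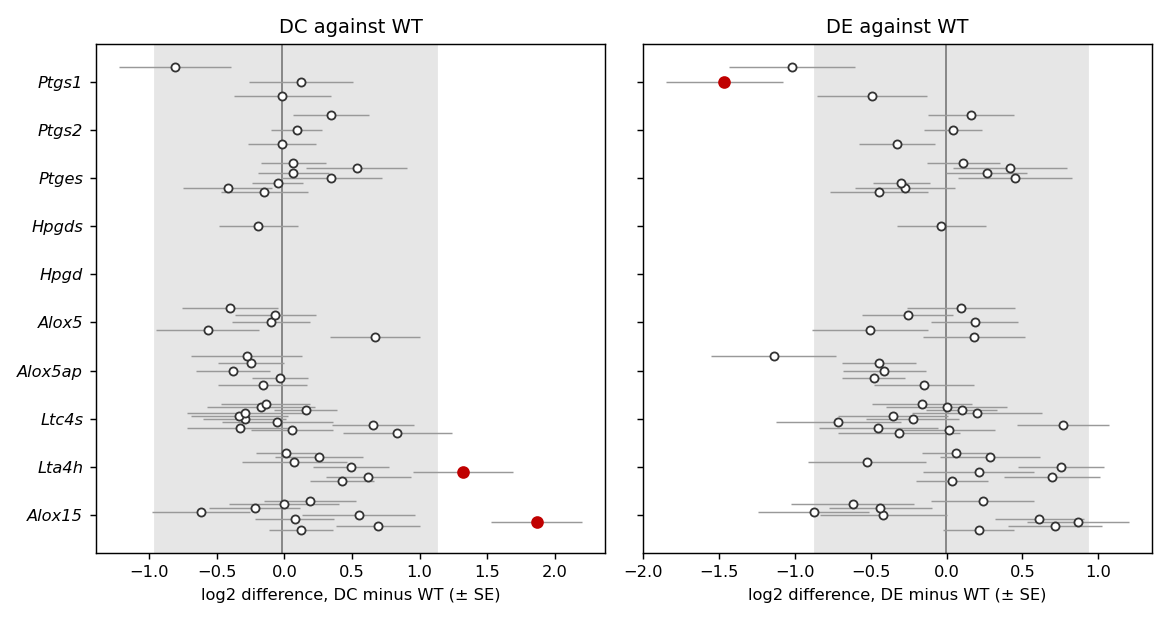
Log2 difference in scaled summit pileup, DC minus WT (left) and DE minus WT (right), for the 51 member regions called in all 6 libraries, by gene (point, estimate; bar, ± SE, limma with the batch as a term; grey, central 95% of all 23480 regions). Filled red points passed an adjusted p of 0.05: regions of Alox15 and Lta4h in DC and of Ptgs1 in DE. Hpgd had no region called in all 6 libraries.

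Ptgs2, the inducible cyclooxygenase, had its strongest binding away from the gene. The region at chr1:150164710-150165292, 56476 bp beyond the annotated end, overlapped the start of Ptgs2os2 and ranked 19th and 63rd by q among the regions of the WT libraries. Its summit pileups were 618 and 282 for WT, 900 and 246 for DC, and 565 and 366 for DE. After scaling these became 624 and 296, 556 and 377, and 473 and 415, so that the WT libraries were the highest and the lowest and the genotypes overlapped. With the batch as a term, the difference from WT was 0.09 in DC (SE 0.190, 95% interval -0.29 to 0.47, limma adjusted p 0.873). In DE it was 0.04 (SE 0.190, -0.34 to 0.42, limma adjusted p 0.965). Without the batch, the SE was 0.347, and the intervals were -0.67 to 0.85 in DC and -0.72 to 0.80 in DE. The 6 summits fell within 3 bp of each other, as at 127 of the 23480 regions (0.541%). The WT values that drew attention to this region also enter these differences. A weaker region 58887 bp beyond the gene had pileups of 69 and 38 in WT.

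The region over the Ptgs2 start, chr1:150099635-150100328, which also covers the start of the antisense transcript Ptgs2os, was weaker. Its pileups were 102 and 82 for WT, 191 and 48 for DC, and 103 and 58 for DE, or 103 and 86.2, 118 and 73.6, and 86.2 and 65.7 after scaling. The DC values lay on both sides of the WT values, and DE overlapped DC. DE replicate 1 tied with WT replicate 2 at 86.2, and DE was below WT within each batch. The DE to WT ratio was 0.837 (95% counting interval 0.63 to 1.11) in batch 1 and 0.762 (0.535 to 1.08) in batch 2. The log2 difference was -0.02 in DC (SE 0.251, 95% interval -0.51 to 0.48) and -0.32 in DE (SE 0.251, -0.82 to 0.17), with limma adjusted p of 0.987 and 0.669. Around the 60 kb limit, the outermost regions called in both WT libraries that were taken for any member were these 2 distal Ptgs2 regions at 56476 and 58887 bp, and the first such regions left out were near Alox15 at 61180 and 62741 bp, with WT pileups of 40 and 57 and of 29 and 18.

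**Figure D3:**
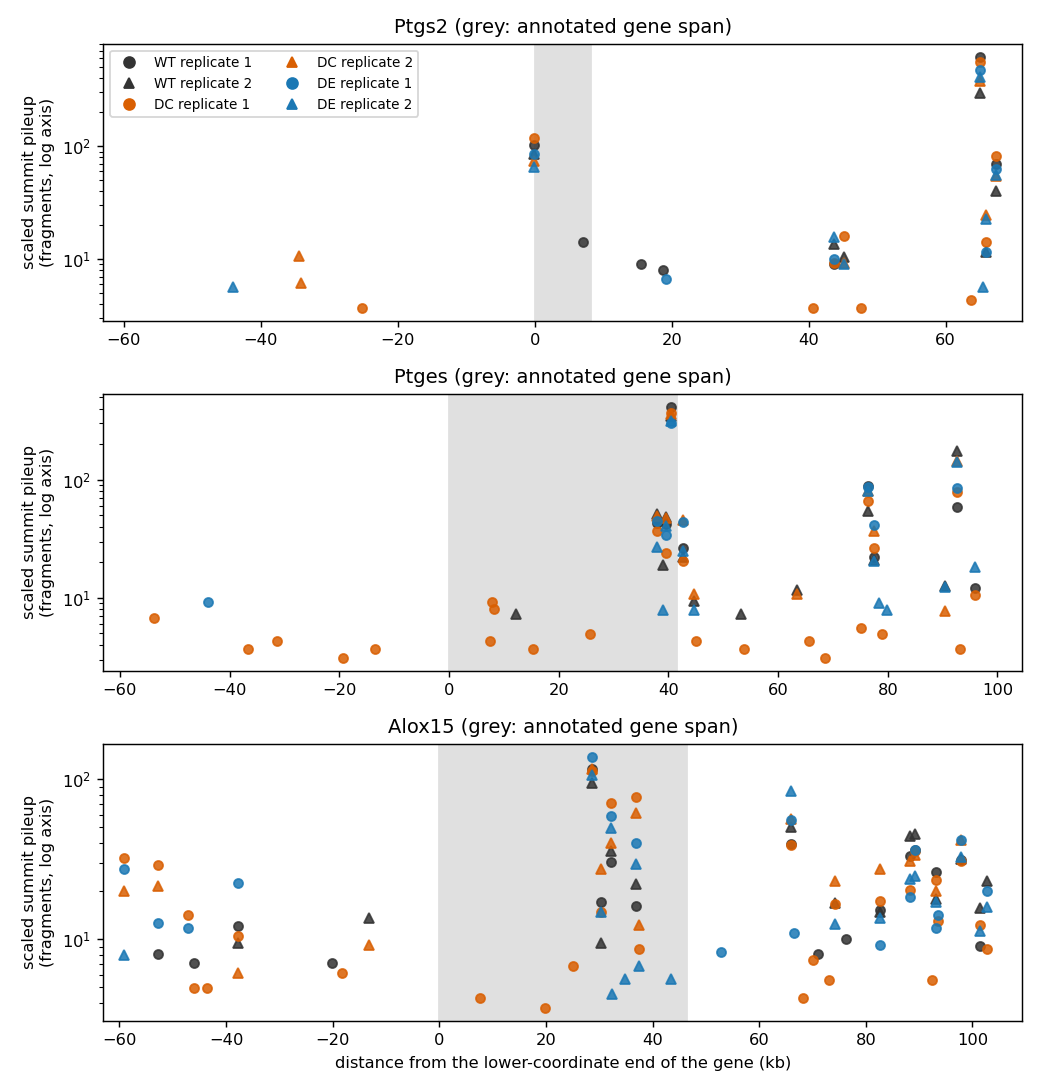
Scaled summit pileup (log axis) of every region within 60 kb of Ptgs2, Ptges and Alox15, by distance in kb from the gene end with the lower coordinate (grey, annotated span; circle, batch 1; triangle, batch 2). The highest points are the distal region of Ptgs2, a region inside the outer span of Ptges, and a region inside Alox15.

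Ptgs1, the constitutive cyclooxygenase, had weaker binding, and its best-ranked WT region was lower in DE. This region, chr2:36234577-36234860, lies inside the annotated span 4151 bp after the curated start. Its pileups were 40 and 26 for WT, 46 and 30 for DC, and 17 and 9 for DE. Scaled values were 40.4 and 27.3 for WT, 28.4 and 46 for DC, and 14.2 and 10.2 for DE, so both DE libraries lay below all 4 others. With the batch as a term, binding there fell by 1.46 on the log2 scale in DE against WT (SE 0.384, limma adjusted p 0.0263), and without it the adjusted p was 0.885. The DE to WT ratio was 0.352 (95% counting interval 0.187 to 0.636) in batch 1 and 0.373 (0.154 to 0.822) in batch 2. The WT values by which this region was picked also enter the difference and the ratios. The call was lost when pileups were scaled by the background floor (log2 difference -0.91, limma adjusted p 0.714), on the authors' fold (-1.06, adjusted p 0.918), and when any 1 of the WT or DE libraries was left out (log2 difference -1.80 to -1.13, adjusted p 0.0676 to 0.401).

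Between the variants, DC minus DE at the same Ptgs1 region was 1.59 (SE 0.384), with a limma adjusted p of 0.107 and both DC libraries above both DE libraries. In the fit of the 4 DC and DE libraries alone the adjusted p was 0.0459 with the batch as a term and 1 without it. It was also 1 in the 6-library fit without the batch, with floor scaling and on the authors' fold. The DC to WT difference was 0.12 (SE 0.384, adjusted p 0.922). The region over the Ptgs1 start, chr2:36230344-36230666, had pileups of 26 and 40 for WT, 57 and 20 for DC, and 21 and 28 for DE, with overlapping genotypes. The DE estimates of the 3 tested Ptgs1 regions ran from -1.46 to -0.49, of which the first passed the test.

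**Figure D4:**
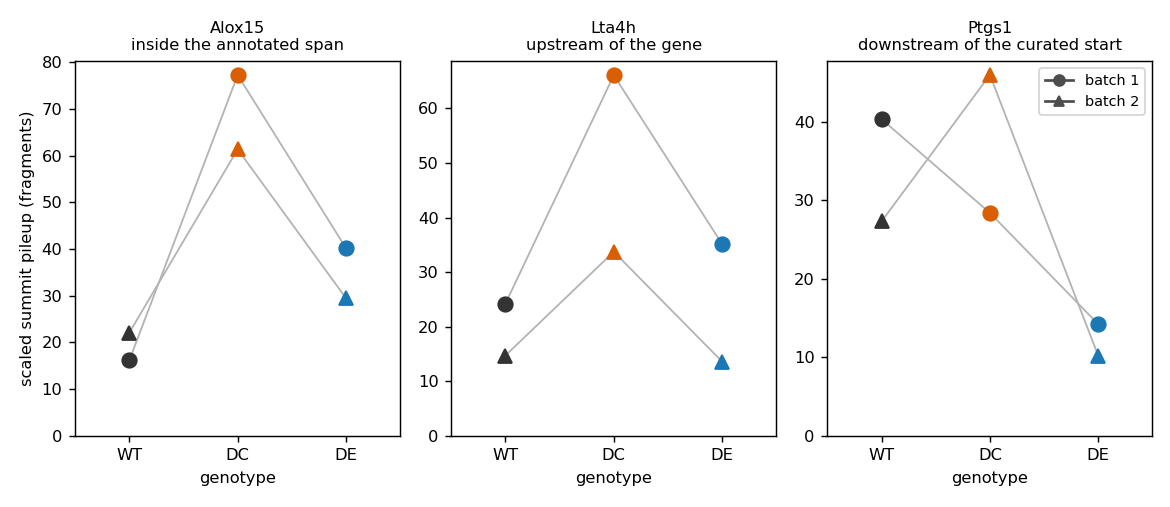
Scaled summit pileup of the 3 member regions that passed the test with the batch as a term (circle, batch 1; triangle, batch 2; grey lines join libraries of a batch). Both DC libraries are above both WT libraries at the Alox15 and Lta4h regions, and both DE libraries are below all others at the Ptgs1 region.

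Ptges, the inducible prostaglandin E synthase, had the best WT rank of all members when the worse of both libraries is taken. Its leading region, chr2:30929522-30930232, ranked 35th and 30th by q. It lies 26225 bp before the curated start on the minus strand, inside an outer span that RefSeq extends with a predicted transcript. The pileups were 412 and 329 for WT, 600 and 236 for DC, and 360 and 279 for DE. After scaling they were 416 and 346, 371 and 362, and 301 and 316, so the values of DE were the lowest and those of DC lay between the WT libraries. The difference from WT was -0.05 in DC (SE 0.190, 95% interval -0.43 to 0.33) and -0.30 in DE (SE 0.190, -0.68 to 0.08), with limma adjusted p of 0.938 and 0.575. The region was picked for its WT rank, so the WT values that picked it also enter these differences. Both estimates changed sign when pileups were scaled by the background floor, to 0.81 and 0.26. The authors' fold enrichment at this summit was 177 and 68.6 for WT, 285 and 90.5 for DC, and 142 and 114 for DE.

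All 7 Ptges regions called in both WT libraries were called in all 6 libraries. Their WT pileups ran from 22 to 412 in replicate 1 and from 20 to 329 in replicate 2. A pair of weaker regions lay within 3 kb of the leading one, at chr2:30927129-30927681 and chr2:30928836-30929269, with 43 and 49 and with 42 and 46 fragments in WT. None of the 7 passed the test, and their estimates ran from -0.42 to 0.53 in DC and from -0.44 to 0.45 in DE.

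Hpgds, which makes prostaglandin D, had its leading region over its own start (chr6:65144617-65145135), above the letters printed earlier. Pileups there were 75 and 37 for WT, 99 and 24 for DC, and 76 and 39 for DE. Scaled values of 75.7 and 38.9, 61.2 and 36.8, and 63.6 and 44.2 followed the batch, with replicate 1 above replicate 2 in each genotype. The difference from WT was -0.19 in DC (SE 0.294, 95% interval -0.78 to 0.39) and -0.03 in DE (SE 0.294, -0.62 to 0.55), with limma adjusted p of 0.813 and 0.980.

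Hpgd, the prostaglandin dehydrogenase, had the fewest regions called in both WT libraries. Of its 12 regions, 1 was called in both WT libraries and 0 in all 6, so none entered the fit of 6 libraries. The former, chr8:56292023-56292601, lies 1951 bp from the gene and had pileups of 20 and 11 in WT, 28 in DC replicate 1 and 22 and 12 in DE. In DC replicate 2 it was not called, and a pileup of 4 was the smallest called at the floor in that library. In the fit of the 4 WT and DE libraries with the batch as a term, DE minus WT there was 0.07 (SE 0.419, 95% interval -0.75 to 0.89, limma adjusted p 0.979).

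**Figure D5:**
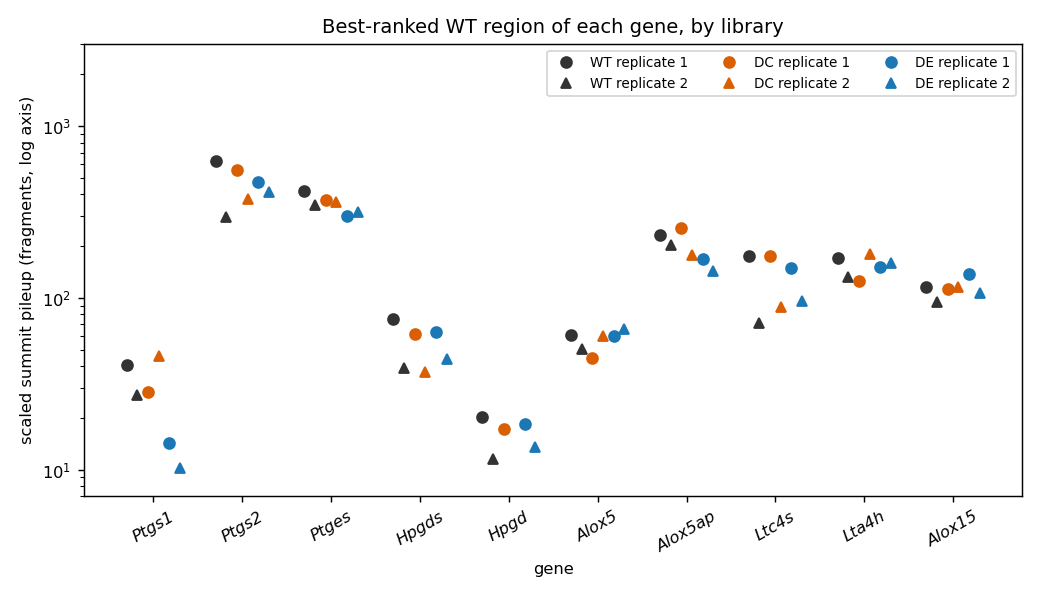
Scaled summit pileup (log axis) of the best-ranked WT region of each member, with 1 point per library (circle, batch 1; triangle, batch 2). Ptgs2 and Ptges stand highest, the points of Hpgd and the DE points of Ptgs1 stand lowest, and at Ptgs1 both DE libraries lie below the other 4.

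In the leukotriene branch, Alox5 and Alox5ap had several regions inside or next to the gene. The best Alox5 region, chr6:116458767-116459418, lies 1760 bp inside the gene from its start. It had pileups of 60 and 48 for WT, 72 and 39 for DC, and 72 and 58 for DE, with overlapping scaled values of 60.6 and 50.4, 44.5 and 59.8, and 60.2 and 65.7. The difference from WT was -0.10 in DC (SE 0.287, 95% interval -0.67 to 0.47) and 0.19 in DE (SE 0.287, -0.38 to 0.76). The region nearest to the start, 1330 bp upstream, was weak, at 7 and 8 fragments in WT, 12 in DC replicate 1 and 14 in DE replicate 1, with no call in replicate 2 of either variant.

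Alox5ap, which encodes FLAP, had its best region outside the gene, at chr5:149245809-149246383, 18621 bp from the span. Pileups were 230 and 194 for WT, 415 and 115 for DC, and 202 and 127 for DE. After scaling to 232 and 204, 256 and 176, and 169 and 144, both DE libraries lay below the other 4, and DC overlapped WT. With the batch as a term, the DE difference was -0.48 (SE 0.209, 95% interval -0.90 to -0.07, limma adjusted p 0.307). Without the batch, its SE was 0.289 and its interval ran from -1.11 to 0.15. When pileups were scaled by the background floor, the DE difference was 0.07. For DC the difference was -0.03 (SE 0.209, -0.45 to 0.38). The WT values by which this region was picked also enter both differences. The 5 tested Alox5ap regions had DE estimates from -1.14 to -0.15, and none passed the test. Inside the gene, the region at chr5:149266747-149266884 was called at 26 and 15 fragments in WT and in no DC or DE library.

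Ltc4s, which conjugates leukotriene A with glutathione, lies in a gene-dense stretch, and 10 of its 13 regions called in both WT libraries were nearer to another gene. The best, chr11:50286355-50286778, lies inside Maml1, 47823 bp from Ltc4s, with pileups of 173 and 68 for WT, 282 and 58 for DC, and 178 and 85 for DE. Scaled values of 175 and 71.5, 174 and 88.9, and 149 and 96.3 followed the batch rather than the genotype. The region inside Ltc4s, chr11:50236619-50236976, had 37 and 85 fragments for WT, 60 and 39 for DC, and 68 and 38 for DE. WT held both the lowest but 1 and the highest scaled value there, at 37.3 and 89.3. Its differences from WT were -0.29 in DC and -0.22 in DE (SE 0.307 each), with limma adjusted p of 0.703 and 0.853.

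Lta4h, the hydrolase that makes leukotriene B, had 7 regions called in all 6 libraries, and 1 of them was higher in DC. This region, chr10:93442081-93442987, lies 10409 bp before the gene. Pileups were 24 and 14 for WT, 107 and 22 for DC, and 42 and 12 for DE. Scaled values were 24.2 and 14.7 for WT, 66.1 and 33.7 for DC, and 35.1 and 13.6 for DE, so that both DC libraries exceeded both WT libraries and DE overlapped each. With the batch as a term, binding rose by 1.32 on the log2 scale in DC (SE 0.368, limma adjusted p 0.0197); without it the adjusted p was 0.575. The ratio was 2.73 (95% counting interval 1.74 to 4.44) in batch 1 and 2.29 (1.12 to 4.85) in batch 2. Leaving out any 1 WT or DC library ended the call (log2 difference 1.10 to 1.55, limma adjusted p 0.0563 to 0.284), as did the authors' fold (1.74, adjusted p 0.174).

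The DC estimates of the 7 tested Lta4h regions ran from 0.01 to 1.32, and the other 6 did not pass the test. The best WT region of Lta4h, chr10:93488170-93489033, lies at the start of the histidase gene Hal, 3274 bp beyond the end of Lta4h. It had pileups of 168 and 125 for WT, 203 and 118 for DC, and 181 and 141 for DE, with differences of 0.01 in DC (SE 0.223, 95% interval -0.43 to 0.46) and 0.06 in DE (SE 0.223, -0.38 to 0.50). Over the Lta4h start itself, at chr10:93452950-93453467, the pileups were 23 and 50 for WT, 47 and 39 for DC, and 49 and 39 for DE, and the genotypes overlapped.

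Alox15, the 12/15-lipoxygenase of macrophages and eosinophils, carried the member region with the largest DC difference. The region, chr11:70380563-70381520, lies inside the annotated span, which includes a predicted transcript. Pileups were 16 and 21 for WT, 125 and 40 for DC, and 48 and 26 for DE. Scaled values were 16.1 and 22.1 for WT, 77.2 and 61.3 for DC, and 40.2 and 29.4 for DE, so the genotypes did not overlap. With the batch as a term, binding rose by 1.87 in DC (SE 0.338, limma adjusted p 8.08e-05); without it the adjusted p was 0.165. The DC to WT ratio was 4.78 (95% counting interval 2.83 to 8.62) in batch 1 and 2.78 (1.6 to 4.96) in batch 2. Scaled by the background floor, the difference was 2.72 (limma adjusted p 0.00385), and on the authors' fold it was 2.25 (adjusted p 0.0381).

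The Alox15 call ended when DC replicate 1, the library with the most peaks, was left out, with a difference of 1.70 (SE 0.496, limma adjusted p 0.0576). It held without WT replicate 1, WT replicate 2 or DC replicate 2, at adjusted p of 0.0257, 4.84e-05 and 0.0105. The DE libraries lay between the other genotypes, with DE minus WT at 0.87 (SE 0.338, limma adjusted p 0.225) and DC minus DE at 1.00 (adjusted p 0.394). In the strongest Alox15 region, chr11:70372503-70373050, about 8 kb away in the same span, the pileups of 115 and 90 for WT, 183 and 75 for DC, and 165 and 94 for DE gave overlapping scaled values. Its differences from WT were 0.12 in DC (SE 0.234, 95% interval -0.34 to 0.59) and 0.21 in DE (SE 0.234, -0.25 to 0.68).

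Regions called in 1 genotype alone cannot enter the test, since they lack a pileup elsewhere, and a pair of libraries against a pair cannot go below p = 0.333 in an exact permutation test. Near the members, 2 regions were called in both WT and neither DC library (0.704%, background 0.39%) and 2 in both WT and neither DE library (0.704%, background 0.638%). Alox5ap held 3 of these 4 calls, with the region at chr5:149266747 counted in both sets and that at chr5:149273754 in the first. The remaining one, 1696 bp from Ltc4s, had pileups of 10 and 12 in WT and 13 in DC replicate 1.

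Of the opposite kind, 6 regions were called in both DC and neither WT library (2.11%, background 1.52%), and 1 in both DE and neither WT library (0.352%, background 0.846%). The latter was among the former: chr11:70284822-70285163, 58984 bp from Alox15 and nearer to Alox12, had 52 and 13 fragments in DC and 33 and 7 in DE. Next to the Alox15 region that rose in DC, chr11:70381547-70381839 was called at 14 and 8 fragments in DC and 6 in DE replicate 2. The other DC regions named by rank were weak, and DE replicate 2 also called each of them. A pair near Ltc4s had 15 and 11 and 39 and 7 fragments in DC, beside 17 and 8 in DE replicate 2. The region near Lta4h had 10 and 8 in DC and 14 in DE replicate 2. Between the variants, 3 regions were called in both DC and neither DE library (1.06%, background 1.02%) and 0 in both DE and neither DC library (background 0.276%).

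The wider eicosanoid pathway was examined in the same way. A list of 48 further genes, from phospholipases to receptors, had 1352 regions within 60 kb, of which 256 were called in both WT libraries and 192 were tested. Member regions were not removed, so a region can count in both sets, such as chr11:70284822-70285163 near Alox12 and Alox15. Regions called in both WT libraries lay near 45 genes; the exceptions were the prostaglandin transporter Slco2a1, the leukotriene receptor Cysltr1 and Oxgr1. With the batch as a term, 2 regions were higher (1.04%, background 3.15%) and 3 lower (1.56%, background 1.15%) in DC than in WT. In DE against WT 0 were higher (background 1.12%) and 0 lower (background 0.268%), and 0 were called in DC against DE. Without it, none of the 192 passed in any comparison. The median differences from WT were -0.07 in DC and -0.06 in DE, beside -0.0201 and -0.00399 for all regions.

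The called regions lay near Cotl1, Mgst3, Coro1a and Ptgds. Near Cotl1, which encodes a coactosin-like partner of 5-lipoxygenase, a region 24585 bp away was higher in DC by 1.13 (SE 0.283, limma adjusted p 0.00728), with pileups of 38 and 31 for WT, 141 and 45 for DC, and 93 and 54 for DE. Another Cotl1 region, 2949 bp away, was lower by a log2 difference of -1.36 (SE 0.402, limma adjusted p 0.0308), with 20 and 46 fragments in WT and 13 and 12 in DC. Regions near Mgst3, a glutathione transferase, and Coro1a, a coronin of leukocytes, were also lower, at -1.65 (SE 0.442, adjusted p 0.0145) and -1.59 (SE 0.443, adjusted p 0.0195). A region 43211 bp from Ptgds, the lipocalin-type prostaglandin D synthase, was higher by 0.70 (SE 0.218, adjusted p 0.0434). With pileups scaled by the background floor, 0 of all 23480 regions were lower in DC, so the 3 lower calls depend on the scaling.

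The shape of the member regions is given beside that of all regions, without a test. The median spread of the 6 summits within a region was 56 bp for the 51 member regions and 67 bp for all 23480, and the spread was at most 50 bp in 22 of the 51 (43.1%) and in 38.3% of all. Median widths were 519 and 435 bp. The smallest spreads among them were 3 and 13 bp at the distal Ptgs2 regions, 14 bp at the best Alox5 region, 16 bp at the leading Ptges region and 18 bp at 2 regions near Ltc4s, of which 1 is the region inside Maml1. Strong regions could also be wider, with 89 bp at the best Alox5ap region and 78 bp at the region over the start of Hal.

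The peak lists held 50221 to 169943 peaks, with DC replicate 1 far above the other libraries. Read totals were not given in the sources used here, so the depth is unknown. At regions that every library called, median pileups were 34 and 34 for WT, 58 and 24 for DC, and 42 and 32 for DE. Counting intervals cover counting error only. The part of peak number and pileup in the DC results was not tested beyond the fits without that library. Binding data cannot check the sorted cell type by expression. As a description, 9 to 18 regions per library lay within 10 kb of Flt3 and 2 to 16 of Kit, the genes of the sort, against 0 to 2 of Cd3e and 0 to 2 of Ly6g, genes of lineage cells.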

How the data were processed

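CUT&RUN for C/EBPα was made in 6 libraries (WT, DC and DE, 2 each). Per the labels' protocols, cells received 3 µL of antibody, chromatin was digested for 30 minutes, libraries had 14 PCR cycles, and fragments of 150 to 350 bp were read as 150 bp pairs. The submitters' processing notes name MACS2 2.2.9.1, Bowtie2, HOMER, SAMtools and Trimmomatic, without roles, and build mm10. The deposited lists, named for a q of 0.1 and made 1 per library, give at each summit the authors' fold enrichment (a ratio), the −log10 p-value, the −log10 q-value and a score. Whether the IgG libraries served as control is not given in the sources used here, nor are read totals, so depth is unknown.

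The members and gene lists were chosen with earlier results of these data known. Peaks overlapping by 1 bp were merged into 259446 regions (Python 3.11.15, pandas 2.3.3). Gene spans came from RefSeq. They give gene ends without exons. In MACS2 the fold is that of the pileup plus 1 over the local background plus 1, with a Poisson tail as p-value. A whole pileup that solves both was found for at least 99.986% of peaks within 5% of a step. A second whole pileup also fitted 24779 of the 169943 peaks of DC replicate 1, and 2665 to 6152 peaks in each other library. In such cases the larger was taken. The smallest background of a library is its floor. Pileups were scaled by the median log2 difference over 23480 regions called in all libraries and tested there with limma 3.58.1 in R 4.3.3, with a trended variance and Benjamini-Hochberg adjusted p under 0.05. The fit with the batch as a term was also run on data simulated from the means, spread and batch differences seen here. That run cannot decide between the fits with and without the batch, since the simulation includes a batch shift. The batch of the labels pairs the libraries. The batch 1 minus batch 2 differences of the genotypes correlated across regions with r of 0.548 (WT and DC), 0.415 (WT and DE) and 0.383 (DC and DE), regions not being independent replicates.

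Named were the best WT region of each member by worse q rank, the one nearest to a gene end, those past the threshold with or without the batch, and up to 5 called in each library of a genotype but in no library of another; of other pathway genes, those with a called region. The best WT regions were picked by WT values that also enter their differences from WT. Other regions were named for context after their values were seen. Alternatives were the batch term, floor scaling, the authors' fold, 4-library fits, leaving out libraries, a q of 0.01, summit overlap, a 10 kb window and nearest-gene assignment; of these, the 4-library fits without the batch and the alternatives for DC against DE were chosen after seeing the data. The motifs were searched on both strands. Regions near some of the lineage genes counted are not reported here.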

Additional observations from a re-analysis of the deposited data

How the results depend on the processing

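The count of member regions past the threshold was 0 in each comparison without the batch and depended on the replicate block. In DC against WT it was 2 with the replicate block, 2 with floor scaling and the block, 2 in the blocked 4-library fit and 1 on the authors' fold with the block, and 0 to 1 when 1 library was left out, 0 being without DC replicate 1. In DE against WT it was 1 with the block and 1 in the blocked 4-library fit, and 0 with floor scaling, on the authors' fold and in every leave-one-out fit. In DC against DE it was 0 with the block and 1 in the blocked 4-library fit. The cause was not tested. The 68 regions called in both WT libraries became 35 within 10 kb of the spans and 44 when the member had to be the nearest gene.

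The following differences, none of which passed the test, changed sign. At Ptges, the DC value of -0.05 became 0.81 with floor scaling, 0.54 on the authors' fold and 0.09 without WT replicate 1, and the DE value of -0.30 became 0.26 and 0.21 with the first 2 of these. At the best Ptgs1 region, DC (0.12) became -0.21 without WT replicate 2 and -0.49 without DC replicate 2. At the Ptgs2 start, DC (-0.02) became 0.84 with floor scaling, 0.06 on the authors' fold, and 0.12 and 0.16 without replicate 2 of WT or DC, and DE (-0.32) became 0.23 with floor scaling. At the distal Ptgs2 region, DC (0.09) became -0.26 without WT replicate 2, and DE (0.04) became -0.31 and -0.27 without replicate 2 of WT or DE. At Alox5ap, DC (-0.03) became 0.83, 0.77, 0.07 and 0.13 with floor scaling, on the authors' fold and without replicate 2 of WT or DC, and DE (-0.48) became 0.07 with floor scaling. At the Lta4h region that rose in DC, DE (0.21) became -0.01 and -0.05 without replicate 1 of WT or DE. Of all values recomputed, 118 kept their direction and side of the threshold, and the block changed no call beyond those given.

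A library left out leaves 1 library in that genotype, which is then assumed to vary like the others. With 2 libraries per genotype and unknown depth, differences smaller than the intervals given were not detectable.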

Other observations

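Strong binding in WT also lay near pathway genes outside the 10 members; these were picked after their values were seen and are given without a test. Pla2g4a, the cytosolic phospholipase that releases arachidonic acid, is the neighbour of Ptgs2 on chromosome 1 and had a region inside it (chr1:149946955-149947398) with pileups of 94 and 69 in the WT libraries. The worse of its WT ranks by q was 11691, so it was not among the strong regions. Cotl1 had 228 and 196 in a region inside the gene, and Cyp4f18, an oxidase that degrades leukotriene B, had 206 and 143. The leukotriene B receptor genes Ltb4r1 and Ltb4r2 share a region with pileups of 449 and 393, which is 40988 bp from the first and 32948 bp from the second. A region with 383 and 469 is shared by Alox12b and Aloxe3, lipoxygenases of the epidermis, at 57788 and 26133 bp. Abcc4, an exporter of prostaglandins, had 287 and 336 inside the gene, and Fpr2, a receptor for lipoxins and formylated peptides, had 247 and 184 at 6597 bp.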
